A study of Mus musculus with 4 samples.

Results

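Peg10 (paternally expressed 10) was represented in the peak list by 7 separate peaks, of 4206 peaks in all. The members are the plus-strand peaks with at least 1 block inside a window of 14001 bp set around the gene on chromosome 6 of mm9, which opens 7361 bp before the first of them and closes 1144 bp after the last. A block is an uninterrupted stretch of a peak, and a peak can have several. The locus was selected on its number of separate peaks in this list, so their number, order, lengths and spacing are given as a description, with no test.

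The peaks come from N6-methyladenosine (m6A) immunoprecipitation and sequencing of total RNA in CCE, a line of mouse embryonic stem cells grown feeder-free with serum and leukemia inhibitory factor. Cells carried a control shRNA or an shRNA against Zfp217, a zinc finger protein, and both arms went through puromycin at 1 microgram per mL for 5 days, begun 4 days after infection. For each arm, RNA was sequenced before and after the antibody step, so there are 4 libraries, 1 per group: control input, control m6A immunoprecipitate, Zfp217 knockdown input and Zfp217 knockdown m6A immunoprecipitate. RNA was broken to about 100 nt before the antibody step. The titles of both immunoprecipitates name Zfp217 beside IP, while their antibody entries name m6A. How far Zfp217 was lowered was not analysed here. All values below are positions in a single list titled as differential, with the same score of 900 in every peak. Which arm had more m6A at any Peg10 peak therefore cannot be read from it, no replicate error exists, and the depth behind each peak is unknown.

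Peg10 is an imprinted gene, expressed from the copy inherited from the father, and it descends from a retrotransposon of the Ty3/gypsy kind. Its first reading frame encodes a Gag-like protein, and a -1 ribosomal frameshift carries part of the ribosomes into a second, Pol-like frame, as in retroviruses. It is needed for placenta formation in the mouse. m6A is laid down on messenger RNA mainly by the METTL3-METTL14 methyltransferase, usually at an adenosine followed by a cytosine, with GGACU among the most used sequences, and often in long internal exons and near stop codons. ZFP217 is known in mouse embryonic stem cells as a protein that binds METTL3.

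Peg10 has an unusual architecture, which is the background for its peaks. In GENCODE vM21 the transcript Peg10-202 measures 6667 nt in 2 exons, the first of 273 nt and the second of 6394 nt, parted by an intron of 6545 nt. The first reading frame occupies nucleotides 371 to 1501 of this transcript. The second, as the model Peg10-203 places it, runs from 1576 to 3390, which leaves 3277 nt after its stop codon. The shift between frames is known to occur at the heptamer GGGAAAC, which was found 1 time in the transcript, at nucleotides 1477 to 1483. It is given in capitals with 10 nt on each side, because it marks where the retroviral reading strategy lies in this RNA.

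Peg10-202 frameshift heptamer: attcgccgccGGGAAACtccccggccc

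In DNA letters GGACU reads GGACT, which was searched on the RNA strand of Peg10-202 and found 4 times. The 4 copies are shown in capitals, each with 10 nt on both sides, because they are the copies in this RNA of the sequence most associated with m6A.

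Peg10-202 GGACT at 51 to 55: caagcagtccGGACTcccgatacac

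Peg10-202 GGACT at 1081 to 1085: ggcctgttgtGGACTactccaatgc

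Peg10-202 GGACT at 1125 to 1129: gacctggattGGACTgagcctgccc

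Peg10-202 GGACT at 5486 to 5490: ggtacctcttGGACTcctgaattga

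The copy at 51 lies before the first reading frame, in the first exon. Those at 1081 and 1125 lie within the first, Gag-like frame. The last lies after the second stop codon, and no copy lay in the Pol-like frame.

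For a background, the same letters were counted in 1696 other protein-coding GENCODE transcripts whose length was within 10% of that of Peg10-202. Of these, 99.5% held at least 1 GGACT, their median was 7 copies with quartiles of 4 and 9, and 85.5% held as many as Peg10 or more. Peg10 thus stood at the lower quartile for GGACT. With GGACA added, and with it GGACC, Peg10-202 held 19 copies against a median of 22, with 69.1% of the others holding as many or more. Of the 19, 4 lay before the first frame, 3 in it, 3 between its stop codon and the second stop codon, and 9 after that. The letters AGACT were found 10 times, against a median of 8, and GAACT 4 times, against a median of 7. AAACT occurred 10 times, against a median of 8. The reverse complement of the main motif, AGTCC, occurred 3 times, against a median of 6. Each of these 7 motifs was held at least 1 time by between 99.0% and 99.8% of the other transcripts, so their presence alone marks little. A run of letters is not a methylated site. These transcripts are annotated on GRCm38 while the peaks are in mm9, so no copy was assigned to a peak.

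The 7 peaks ran in the direction of transcription from chr6:4704361 to 4709856, a span of 5496 nt, and none overlapped another. The first covered 121 nt, from 4704361 to 4704481. The second covered 601 nt in 2 blocks, from 4705200 to 4705838. The third, of 361 nt, ran from 4706618 to 4706978.

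The fourth and longest covered 1171 nt without a break, from 4707277 to 4708447. The 3 peaks behind it shortened in turn. They measured 301 nt from 4708657 to 4708957, 210 nt from 4709227 to 4709436, and 181 nt from 4709676 to 4709856. All 7 exceeded the labelled fragment size of about 100 nt, as did most other peaks of the list, whose lower quartile was 120 nt.

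**Figure D1:**
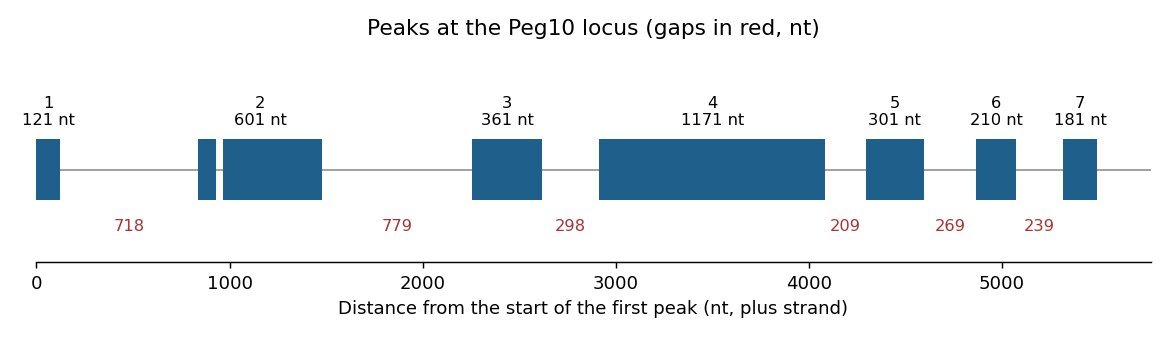
The 7 Peg10 peaks are drawn to scale by distance in nt from the start of the first, with their order and summed block length above and the gap to the next peak in red below. The longest peak, of 1171 nt, is the middle one by order and lies in the 3′ part of the span. The gaps of 718 and 779 nt lie before the third peak, and the last 4 gaps are between 209 and 298 nt.

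The covered bases were unevenly divided among these peaks. Together they covered 2946 nt, of which the fourth alone held 39.7% and the second and the fourth together 60.1%. The 3 peaks before the fourth covered 1083 nt and the 3 after it 692 nt. With the span cut at its midpoint, 36.8% of the covered bases lay in the 5′ part and 63.2% in the 3′ part, and the fourth peak lies wholly in the latter.

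Peaks stood closer together toward the 3′ end. The gap from the first to the second peak was 718 nt and that from the second to the third 779 nt. The following gaps were 298, 209, 269 and 239 nt. The smaller of the first 2 gaps was thus larger than any of the last 4, with no order among the last 4. Every gap was longer than the labelled fragment of about 100 nt. Most gaps between other neighbours, near or far, were longer too, with a lower quartile of 3667 nt. Among other pairs 0 to 1000 nt apart the lower quartile was 89 nt, which is below the fragment size. Measured between midpoints, neighbouring Peg10 peaks were 1098, 1279, 1064, 945, 524.5 and 434.5 nt apart. By this measure the distance fell at each step from the second onward.

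In length, most Peg10 peaks were ordinary for this list. The other 4199 peaks had a median of 210 nt with quartiles of 120 and 420 nt. Of the 7 Peg10 peaks, 5 lay within those quartiles and 2 above them, and their own median was 301 nt. The fourth was longer than 98.0% of the other peaks, with 82 longer than it, and the second was longer than 87.2%. At the other end, the first was longer than 25.3% of them. Over 600 nt were 2 of 7 at Peg10 and 12.8% of the others. The second Peg10 peak, at 601 nt in 2 blocks, barely passed that limit, while 20 other peaks of exactly 600 nt did not.

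**Figure D2:**
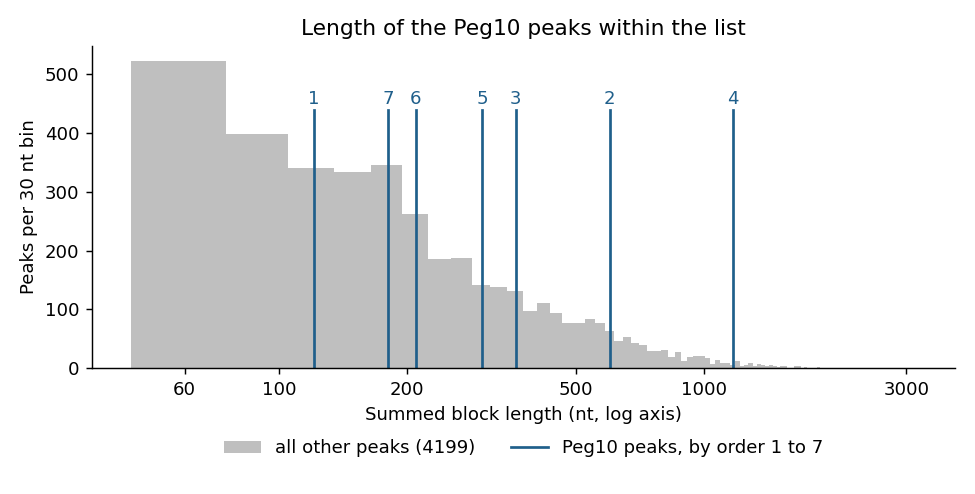
The histogram counts the 4199 other peaks of the list by summed block length in nt on a log axis, in bins of 30 nt. The blue lines mark the 7 Peg10 peaks by their order along the gene: the first, at 121 nt, lies near the lower quartile of 120 nt, and the fourth, at 1171 nt, in the thin upper tail.

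Every Peg10 length fell on the step of 30 nt that marks the list as a whole. All 7 were within 1 nt of a multiple of 30, against 85.9% of the other peaks, and 6 of the 7 were off the exact multiple. Being off it was common in the list: 396 other peaks measured 61 nt and 124 measured 60 nt. At a greater length, 100 measured 211 nt and 118 measured 210 nt. The edges of the Peg10 peaks are therefore no finer than that step, and gaps and lengths carry this grain.

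The second Peg10 peak was built from a block of 89 nt and one of 512 nt, from 4705200 to 4705288 and from 4705327 to 4705838. The 38 nt between them is one of the shortest interruptions in the list. Among the 485 gaps inside other peaks the median was 1485 nt, a single one was shorter, at 21 nt, and no other was under 70 nt. In GENCODE vM21 the Peg10 models have 2 kinds of interruption, the intron of 6545 nt and, in Peg10-201, a step of 2 nt by which the model joins both reading frames. Neither has the length of the gap in the peak. Splitting occurred in 1 of 7 peaks at Peg10 and in 9.62% of the others.

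Lengths can be set beside the exon structure without positions. The widest gap between Peg10 peaks, 779 nt, is shorter than the intron of 6545 nt, so no gap between them can hold an intron of that length. Their span of 5496 nt is shorter than the second exon, of 6394 nt, and longer than the 3018 nt coding sequence, stop codon included, of the frameshifted model Peg10-201. These are comparisons of lengths between a GRCm38 annotation and mm9 peaks. Which peak lies in which reading frame or untranslated part was not assigned.

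Outside the 7 peaks the window was empty. Its first 7361 bp, or 52.6% of its length, held no plus-strand peak, and neither did the last 1144 bp. The minus strand held 0 peaks in the window, but the named library kit does not mark strand and the origin of the listed strands is unknown, so this says nothing of antisense RNA. The peaks covered 21.0% of the window and 53.6% of the span from the first to the last of them. In the GRCm38 annotation Peg10-202 has 6667 nt of exons and an intron of 6545 nt. The share of the window is therefore not a share of the RNA.

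The nearest peaks outside the 7 lay beyond the window. On chromosome 6 no peak of either strand preceded the first Peg10 peak. The next peak on the plus strand, of 241 nt, began at 4856508, which is 147 kb beyond the last Peg10 peak. That distance was below the median gap of 190833 nt between other neighbours on a strand. On the minus strand the first peak of the chromosome began at 13532753, or 8823 kb beyond the last Peg10 peak. In the RefSeq gene order on GRCm38, Peg10 is preceded by Sgce, an imprinted gene for a sarcoglycan, and by Casd1, a sialic acid acetyltransferase. Ppp1r9a, which encodes neurabin, follows it with Gmfg-ps between them. The peak at 4856508 was not assigned to a gene. Of the 94 plus-strand peaks of chromosome 6, the 7 at Peg10 were 7.45%, and they were 0.166% of the whole list by number and 0.223% by summed length.

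Close spacing was common among peaks of the list, while long runs of it were few. Of the 4158 other pairs of neighbours on a strand, 829, or 19.9%, were 0 to 1000 nt apart, with a median gap of 208 nt and quartiles of 89 and 388 nt. The 6 Peg10 gaps had a median of 283.5 nt: 4 lay inside those quartiles and the 2 nearest the 5′ end lay above them. Over all other neighbours, near or far, the median gap was 190833 nt.

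**Figure D3:**
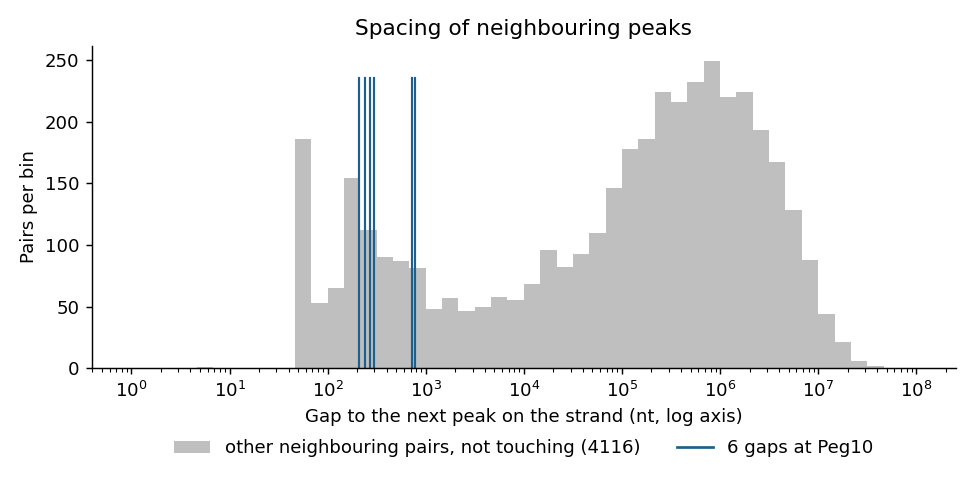
The histogram shows the gap in nt, on a log axis, from each peak to the next on its strand for 4116 other pairs that do not overlap. The blue lines mark the 6 gaps at Peg10, 4 between 209 and 298 nt and 2 at 718 and 779 nt, all within the group of close pairs to the left.

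When peaks of a strand were joined into chains wherever their blocks lay within 1000 bp, 656 chains formed, of which 11, or 1.68%, held 5 or more peaks. The 7 peaks of Peg10 made 1 of them. A single other chain had more, with 8 plus-strand peaks on chromosome 9 between 111174612 and 111176475. The list passes through the chromosomes in turn 2 times, in runs of 4118 and 88 peaks that no source used here explains. That chain drew 4 of its 8 peaks from the second run and held 4 overlapping neighbours. All 7 Peg10 peaks came from the first run, as did every peak in 9 of the 10 other chains of 5 or more. Within the first run, a limit chosen after seeing the data, the Peg10 chain had the most peaks of any.

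The Peg10 chain was also longer than the 10 others of 5 or more peaks, of which 9 held only 5. The 10 other chains of 5 or more peaks spanned 1.62 to 3.33 kb, with a median of 2.10 kb, against 5.50 kb at Peg10. None covered as many bases as the 2946 nt at Peg10, the next being 2314 nt in a chain of 5 minus-strand peaks on chromosome 2 between 180393179 and 180396328. In the share of the span covered Peg10 lay among them: they ran from 22.5% to 80.0% with a median of 38.5%, and 6 of the 10 were below the 53.6% of Peg10. Among chains of any number, 4 covered more bases than Peg10 and 19 had a longer span. All spans are genomic and introns in the other chains were not located, so covered shares are not shares of RNA.

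Next in number after the chain on chromosome 9 came 9 chains tied at 5 peaks. The first 2 of these by position lay on chromosome 1, where one on the plus strand from 58072586 to 58074620 covered 544 nt in a span of 2.04 kb. The other, on the minus strand from 191481189 to 191482867, covered 514 nt in 1.68 kb. Their longest peaks measured 181 nt and 270 nt, against 1171 nt at Peg10.

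**Figure D4:**
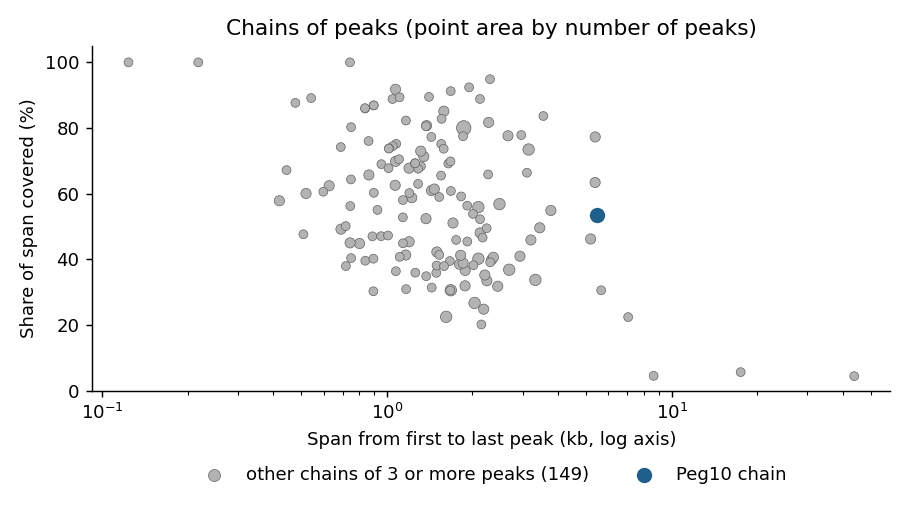
Each point is a chain of 3 or more peaks joined within 1000 bp, with its span in kb on a log axis, the share of that span covered by peaks in percent, and a point area that grows with the number of peaks. Peg10, in blue at 5.50 kb and 53.6%, lies to the right of most of the 149 other chains. The 5 with a longer span were covered to at most 30.6%. Just short of Peg10, chains of 4 peaks spanned 5.40 kb at 77.3%, 5.39 kb at 63.4% and 5.20 kb at 46.2%.

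Counted over windows as wide as that of the locus, Peg10 did not have the most peaks. Windows of 14001 bp were set at the start of each peak, strand by strand, and kept where they did not overlap one with more peaks. Peg10 shared the fourth place with 2 others at 7 peaks. The most, 9, lay on chromosome 19 in the plus direction between 9077354 and 9091734, where they covered 1747 nt. A minus-strand window on chromosome 4 between 141024434 and 141035054 held 8 peaks covering 1657 nt. The third was the stretch on chromosome 9 with its overlapping peaks.

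In the share of the span covered, Peg10 lay below the chromosome 9 window, at 80.0% with overlapping peaks, and above the other 4. The chromosome 19 window was covered to 12.1% of its span and the chromosome 4 window to 15.6%, against 53.6% at Peg10. Spans are genomic and introns in the other windows were not located, so these are not shares of RNA. Of the windows tied with Peg10 at 7 peaks, a minus-strand one on chromosome 1 between 191477538 and 191482867 was covered to 25.4%. The other, minus-strand too, lay on chromosome 15 between 76001434 and 76009566. It was covered to 51.3% and held more covered bases than Peg10, 4172 nt, of which a single peak made up 2458 nt. The shortest peak was 61 nt in each of the windows on chromosomes 19, 4, 9 and 1, and 121 nt both at Peg10 and on chromosome 15. Genes were not assigned to these windows, and how Peg10 compares with other imprinted genes was not analysed here.

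**Figure D5:**
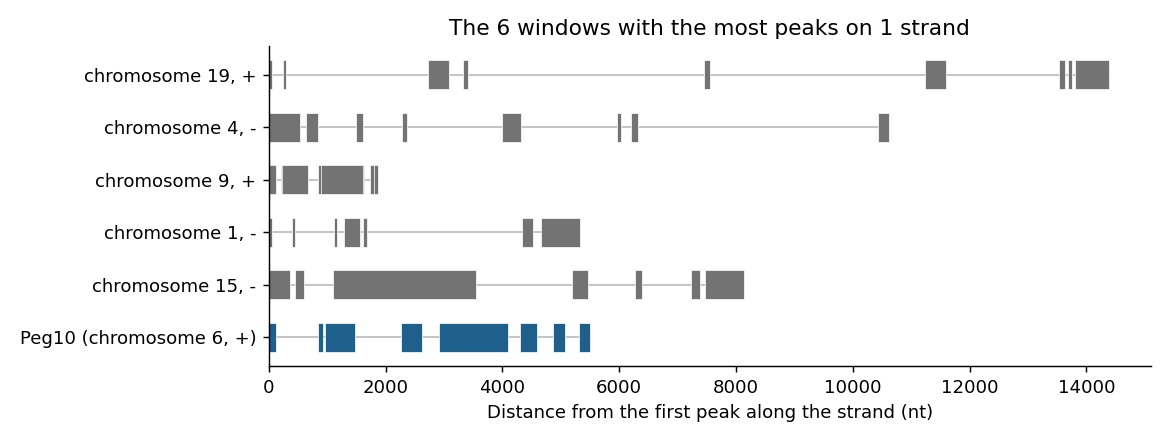
The 6 windows of 14001 bp with the most peaks on 1 strand are drawn from the first peak onward in the direction of the strand, in nt, with each block as a bar and Peg10 in blue. The window on chromosome 19 spreads 9 peaks over 14.4 kb of genome, in which introns were not located, while the 7 at Peg10 fill 53.6% of 5.50 kb.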

How the data were processed

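The series holds 4 RNA libraries in 4 groups, grouped by their titles. The submitters' processing notes list MACS 1.4, Bowtie2 and CASAVA 1.4 with mm9; the tools' roles, the libraries compared and any threshold are not given there. Deposited was 1 list of peaks in BED12 layout, whose score is 900 throughout. Deposited starts were changed to count from 1. Columns of per-sample values left unused numbered 0.

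Members were taken by window and strand, with a block wholly inside the window. The gene and the measures were chosen with earlier results of these data known. Length is the sum of blocks; a gap runs from the end of a peak to the start of the next on its strand; a length within 1 nt of a multiple of 30 was counted as on the step. Named windows and chains follow a rule: the 3 others with the most peaks, ties by chromosome and position; the windows tied with Peg10 and the chromosome 2 chain were named after their values were seen. A simulated list of 1007 peaks with a planted chain of 6 tested the measures, and all 10 checks were recovered. Gene models and transcript sequences are from GENCODE vM21 and gene order from RefSeq, both GRCm38, used for names, lengths and motif counts, never for positions of peaks. Of the gene lists in the plan, none was used, since no mm9 annotation was at hand. Promoter sequences were not used here. Python 3.11.15, numpy 2.4.6 and matplotlib 3.10.9 were used. Alternatives varied the window, strand, joining distance and length measure.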

Additional observations from a re-analysis of the deposited data

How the results depend on the processing

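The 7 peaks at Peg10 stayed 7 with the window widened by 5 kb or narrowed by 1 kb on each side, with both strands, with peaks within 100 bp merged and with the first run of the list only. Merging within 300 bp, chosen after seeing the data, left 3, because the last 5 peaks are under 300 nt apart. The covered share was 21.0% of the window and 53.6% of the span from the first to the last peak, which has a smaller denominator, and 21.3% of the window with whole peak spans. The median gap was 283.5 nt end to start and 1004.5 nt between midpoints, which includes the peaks themselves. The median length was 301 nt by blocks and by genomic span. By peaks per window Peg10 ranked 4, and 2 with windows of 5 kb, which hold 6 of its 7 peaks, 6 with windows of 30 kb and 3 in the first run only, each time tied with 2 others. By peaks in a chain it ranked 2 with no tie. It also ranked 2 with joining at 300 bp, where its chain holds 5 peaks and ties with 1 other, and at 3000 bp, where it ties with 3 others. In the first run only it ranked 1, with no tie; both limits to the first run were chosen after seeing the data. No paired analysis was possible because no group has a second library. What sequencing depth limits could not be stated, since the list holds no counts.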
